A study of Rattus norvegicus with 26 samples.

Results

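GABA-A receptors are chloride channels built from 5 subunits, and the beta, gamma, delta and epsilon genes of the family are described here in the injured rat spinal cord. The members were chosen by symbol and comprised Gabrb1 (ENSRNOG00000002327) and Gabrb2 (ENSRNOG00000003680), which encode beta subunits, and Gabrg1 (ENSRNOG00000002360) and Gabrg3 (ENSRNOG00000014862), which encode gamma subunits. Gabrd (ENSRNOG00000016385) encodes the delta subunit and Gabre (ENSRNOG00000061182) the epsilon subunit. They are 6 of the 32883 genes counted, and all 6 were among the 17990 genes with enough reads to be tested.

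Transcripts were measured by RNA sequencing of poly(A) RNA in 26 libraries from wild-type adult female Sprague-Dawley rats, labelled as postnatal day 70. Each library came from a 5 mm segment of spinal cord, centered on the lesion in the injured rats. The 4 Intact libraries are labelled untreated. Rats of all the other groups had a thoracic clip compression injury of 60 g for 1 min, and sub-SCI (3 libraries) was taken at the time of transplantation, 7 days after the injury. The +MSC rats received hUC-MSCs, mesenchymal stem cells from human umbilical cord, by intrathecal injection at that time and were sampled 1, 2 or 4 weeks post-transplantation (wpt), with 3, 3 and 4 libraries. The +PBS groups, injured without cells and sampled at the same weeks, had 3, 2 and 4 libraries. According to the study's methods the +PBS rats received vehicle, and cyclosporin A was given to rats every day to suppress rejection. Neither the labels nor the methods used here say that each library was 1 rat, so p-values measure the spread between these libraries. Segments at a lesion hold changing mixtures of cells, and in such bulk tissue fewer cells of a type and less RNA per cell cannot be told apart.

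Most GABA-A receptors combine alpha and beta subunits, between which GABA binds, with a further kind of subunit. Gamma subunits are typical of receptors at synapses and shape their response to benzodiazepines, whereas receptors with the delta subunit sit mainly outside synapses and carry a tonic current. In the spinal cord these channels inhibit sensory and motor circuits, also at the terminals of sensory fibers.

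The 2 beta genes are shown by their promoters because their transcripts diverged after injury, although a shared run of short sequences lies near both starts. In the RefSeq promoter windows of rat build GRCr8 (250 bases before to 50 after a start), all 6 members had an entry. The stretches below are written 5′ to 3′ on the gene's strand, and the capitals mark the 3 words of at least 10 bases that both windows share, which lie in the same order. The Gabrb1 stretch is chr14:36902867-36902938 on the minus strand, from 45 bases before the start to 27 bases after it. The Gabrb2 stretch is chr10:27439682-27439749 on the plus strand, and begins 111 bases before the start.
Gabrb1: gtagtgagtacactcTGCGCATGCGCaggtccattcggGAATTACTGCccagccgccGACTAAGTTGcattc
Gabrb2: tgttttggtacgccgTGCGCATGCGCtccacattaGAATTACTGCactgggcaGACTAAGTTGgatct

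This comparison was chosen after the sequences were seen, and the words were searched on both strands of all 33469 windows. TGCGCATGCGC, which resembles the motif bound by NRF1, was in 0.598% of windows, GAATTACTGC in 0.0388% and GACTAAGTTG in 0.0149%. None of the other 4 members had any of the 3 words. GC content also separated the members, at 44.0% in Gabrb2, 48.7% in Gabrg1 and 49.3% in Gabrb1, against 67.3% in Gabre, 73.7% in Gabrd and 76.7% in Gabrg3, with a median of 51.7% over all windows. GGGCGG was in the windows of Gabrg3, Gabrd and Gabre and in 33.1% of all windows. TATAAA was in none of the 6 and in 14.2% of all windows. These matches describe letters only, and both genes have annotated transcripts that start further upstream.

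The libraries held 19496602 to 43468509 counted reads. The 15 neuron markers (among them Rbfox3, Snap25 and Syt1) were read in every library. Their summed CPM, read counts scaled to a common library size by the TMM method, lay between 14700 and 17500 in Intact, 892 and 3470 in sub-SCI, 1890 and 9780 in +PBS and 5590 and 13300 in +MSC. Replicate 1 of +PBS-4w stood apart from the rest of its group. Its neuron markers summed to 9780 CPM against 2560 to 3510 in the other +PBS-4w libraries, and its fibroblast markers to 1430 against 4650 to 5770. Results whose call or direction changes without it are given both ways, as are the values at 4 wpt that it moves most.

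Most of the family was lower at the lesion than in intact cord. In sub-SCI, 5 of the 6 genes were DEGs with lower levels than in Intact, where 17.5% of all genes tested were. A DEG here has a log2 fold change past 1 in either direction and an adjusted p under 0.01 in edgeR's quasi-likelihood test over all 17990 genes. At 1 wpt 5 of 6 were lower in +PBS than in Intact (12.5% of all genes), at 2 wpt 1 of 6 (5.66%) and at 4 wpt 3 of 6 (10.7%). None of the 6 was a higher DEG in any of these comparisons, which share the Intact libraries. Every injured library lay below every Intact library for 5 of 6 genes in sub-SCI, for 6 of 6 in +PBS-1w and +PBS-2w and for 5 of 6 in +PBS-4w, where the shares of all genes were 34%, 30.5%, 31.3% and 21.3%. Between +MSC and +PBS of the same week none of the 6 was a DEG at 1, 2 or 4 wpt, by edgeR or by DESeq2. Over all genes, 0%, 0% and 0.495% were higher DEGs in those 3 comparisons. At an unadjusted p under 0.05, 3 of the 6 were higher in +MSC at 1 wpt (Gabrb1, Gabrb2 and Gabrd), 1 at 2 wpt (Gabrd) and 2 at 4 wpt (Gabrb2 and Gabrg3). Of all genes 10.6%, 5.49% and 11.2% were higher at that threshold, and none of the 6 was lower. Every +MSC library lay above every +PBS library for 2 of 6 genes at 1 wpt (15.3% of all genes), 4 of 6 at 2 wpt (18.6%) and 2 of 6 at 4 wpt (6.08%). In the mean of the 3 weekly differences 1 of 6 was a DEG, Gabrb2, where 1.61% of all genes were higher DEGs.

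The groups given cells still lay on the low side of Intact. None of the 6 was a DEG between +MSC and Intact in the edgeR fit of all libraries, and 2.63%, 0.461% and 1.53% of all genes were lower DEGs at 1, 2 and 4 wpt. At an unadjusted p under 0.05, Gabrb2 was lower at each week, Gabre at 1 and 4 wpt and Gabrg3 at 4 wpt, where 20.8%, 14.5% and 19.5% of all genes were lower at that threshold at 1, 2 and 4 wpt. With DESeq2 on all libraries 1 of 6 was a DEG at 1 and 4 wpt and none at 2 wpt, and with edgeR on the 2 compared groups only 1 of 6 was at each week. Without +PBS-4w replicate 1, Gabrb2 was a DEG at each week in the fit of all other libraries. Every +MSC library lay below every Intact library for 5 of 6 genes at 1 wpt (25.5% of all genes), for Gabrb2 and Gabrg3 at 2 wpt (21.3%) and for Gabrb1, Gabrb2, Gabrg3 and Gabre at 4 wpt (20.4%). Set against sub-SCI instead, 3 of 6 were higher DEGs in +MSC-4w, Gabrb1, Gabrb2 and Gabrg1, where 10.2% of all genes were. Without +PBS-4w replicate 1, Gabrg3 was 1 as well (1.22, edgeR adjusted p = 0.00685).

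**Figure D1:**
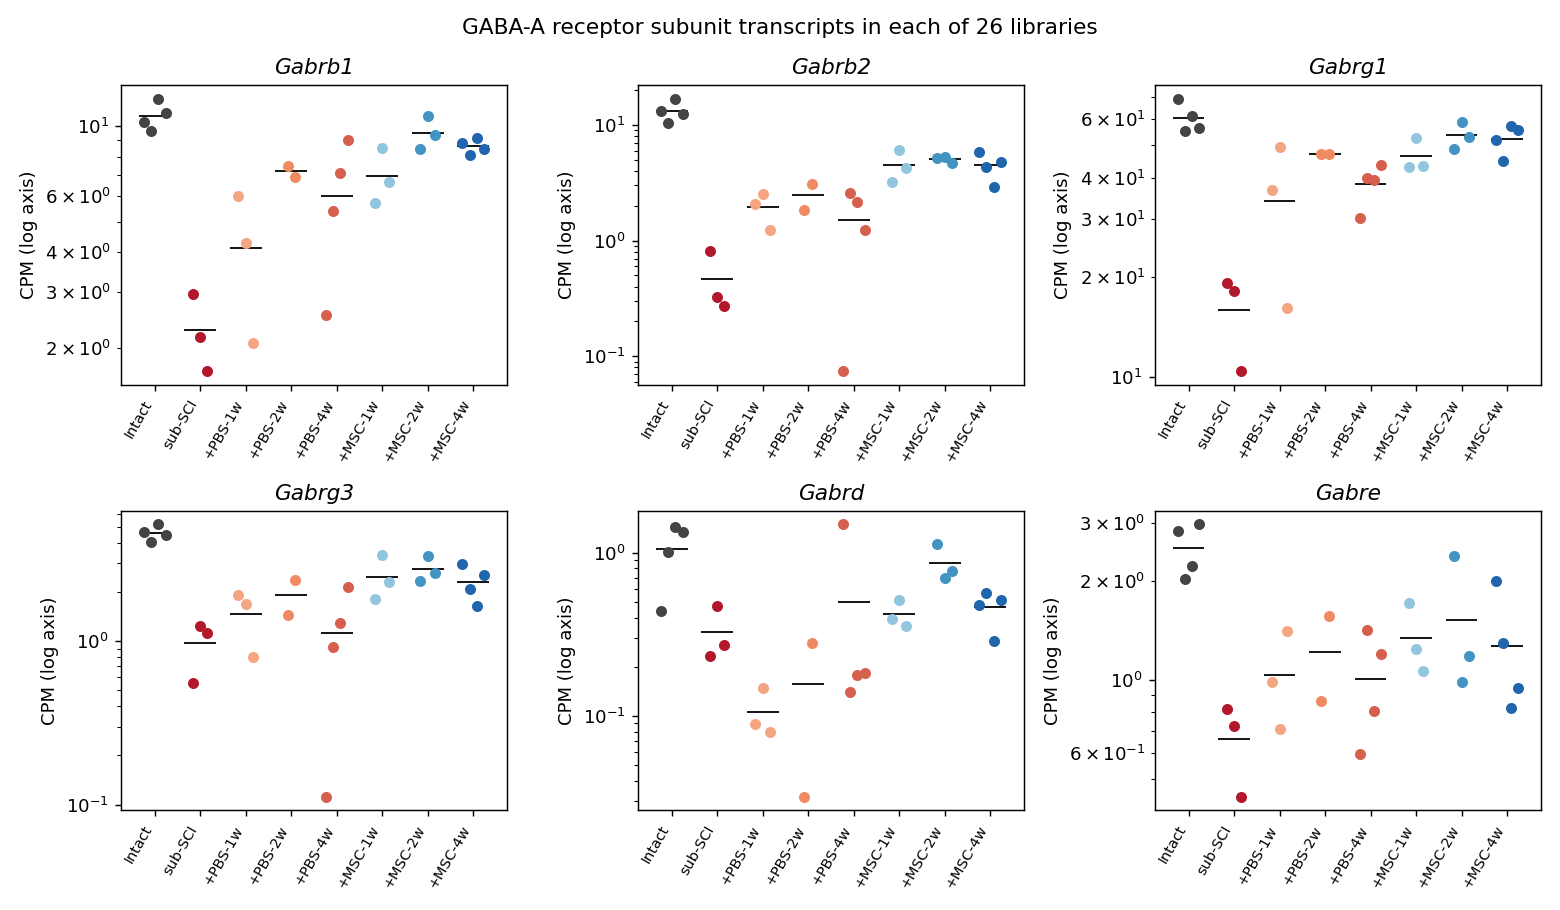
CPM (log axis) of each of the 6 subunit genes in the 26 libraries, by group, with points for libraries and a black line for each group mean. Gabrb2 lies at 10.4 to 16.9 CPM in Intact and below 6.1 CPM in every injured library, and in the Gabrd panel replicate 1 of +PBS-4w lies at 1.49 CPM above the other 3 libraries of its group.

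In the intact cord the genes covered a wide range of levels. Per kilobase of the length listed with the counts, the mean CPM in Intact (4 libraries) was 34.9 ± 3.66 (SD) for Gabrg1, 6.33 ± 1.29 for Gabrb2, 5.58 ± 0.566 for Gabrb1, 2.81 ± 0.290 for Gabrg3, 0.587 ± 0.250 for Gabrd and 0.560 ± 0.103 for Gabre. Gabrg1 stood highest and the ranking had clear steps, except that Gabrb2 and Gabrb1, and likewise Gabrd and Gabre, lay within each other's spread. In sub-SCI (3 libraries) Gabrg1 was again highest at 9.17 ± 2.76 CPM per kilobase, but Gabrb1 (1.18 ± 0.333) and Gabrg3 (0.593 ± 0.223) then lay above Gabrb2 (0.224 ± 0.142). Gabrd and Gabre followed at 0.181 ± 0.0714 and 0.147 ± 0.0435, within the spread of Gabrb2.

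Gabrb2, whose product is a common beta subunit of synaptic receptors, was the member furthest below Intact in sub-SCI. Its levels in Intact were 13.3, 10.4, 16.9 and 12.4 CPM. In sub-SCI they were 0.814, 0.326 and 0.271 CPM, from 28, 9 and 8 reads. No injured library reached the Intact range. The mean in sub-SCI was 3.54% of that in Intact, and the log2 fold change was -4.78 ± 0.64 (SE; edgeR quasi-likelihood test, adjusted p = 1.54e-06).

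Without cells the level of Gabrb2 stayed low at each week. It was 2.08, 2.54 and 1.24 CPM in +PBS-1w, 1.86 and 3.09 CPM in +PBS-2w, and 0.0745, 2.58, 2.15 and 1.24 CPM in +PBS-4w. The 0.0745 CPM of replicate 1 rest on 2 reads and are the lowest value of the 26 libraries. Against Intact the gene was a lower DEG at each week, with log2 fold changes of -2.76 ± 0.56, -2.42 ± 0.65 and -3.13 ± 0.51 (edgeR, adjusted p = 0.000300, 0.00607 and 3.35e-05). Without replicate 1 the value at 4 wpt was -2.68. The call at 2 wpt, which rests on 2 libraries, was lost without Intact replicate 1 or 3 or either +PBS-2w library, with adjusted p up to 0.121.

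With hUC-MSCs the level of Gabrb2 was 3.22, 6.09 and 4.21 CPM at 1 wpt, 5.22, 5.29 and 4.73 CPM at 2 wpt, and 5.81, 4.35, 2.90 and 4.82 CPM at 4 wpt. In each week every +MSC library lay above every +PBS library. The group means were 33.9%, 38.3% and 33.6% of that in Intact, against 14.7%, 18.6% and 11.4% in +PBS. The log2 fold changes between +MSC and +PBS were 1.20 (95% interval 0.04 to 2.36), 1.04 (-0.28 to 2.35) and 1.56 (0.53 to 2.59), with edgeR adjusted p = 0.267, 0.509 and 0.0758. Without +PBS-4w replicate 1 the value at 4 wpt was 1.13 (adjusted p = 0.0291). Their mean over the weeks, 1.27 ± 0.33, passed the thresholds narrowly (edgeR, adjusted p = 0.00955).

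That call was lost with edgeR on the compared groups only, with median-of-ratios size factors, without a filter on low counts and with all replicate 1 libraries left out (adjusted p of 0.0103 to 0.0224), and was kept with DESeq2 on all libraries. It was also lost in 20 of the 26 fits that left out 1 library each. Over all 26 fits the values were 1.11 to 1.40. The adjusted p was 0.000689 to 0.0227 in the fits that held both +PBS-2w libraries. The call was kept in the fits without sub-SCI replicate 1 or 3, +MSC-4w replicate 3, +PBS-1w replicate 2, or +PBS-4w replicate 1 or 2. Without replicate 1 of +PBS-4w, where Gabrb2 was lowest, the mean difference was smaller at 1.11 and its adjusted p was the lowest of these fits, 0.000689. Without that library Gabrb2 was also a lower DEG in +MSC than in Intact at each week, with log2 fold changes of -1.53, -1.35 and -1.55 and adjusted p = 0.00115, 0.00470 and 0.000457. With it the values were -1.56, -1.38 and -1.57 and the adjusted p-values 0.0268, 0.0686 and 0.0159. Gabrb2 in +PBS-4w against sub-SCI, at 1.65 (adjusted p = 0.0482), likewise became a DEG without that library (2.03, adjusted p = 0.000727).

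Gabrb1, encoding a beta subunit found in neurons and glia, fell less and lay closer to Intact in the later groups. Its levels were 10.3, 9.62, 12.2 and 10.9 CPM in Intact and 2.96, 2.17 and 1.70 CPM in sub-SCI, without overlap. The log2 fold change was -2.23 ± 0.34 (edgeR, adjusted p = 8.42e-06), and the mean in sub-SCI was 21.2% of that in Intact. In +PBS it was 6.03, 4.29 and 2.08 CPM at 1 wpt, 7.46 and 6.91 CPM at 2 wpt, and 2.53, 5.40, 7.11 and 9.04 CPM at 4 wpt.

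Against Intact, Gabrb1 was a DEG in +PBS at 1 wpt (log2 fold change -1.37 ± 0.33, edgeR adjusted p = 0.00131), a call lost without +PBS-1w replicate 3 (-1.05, adjusted p = 0.0120). At 2 and 4 wpt it was not a DEG, at -0.58 (95% interval -1.34 to 0.17) and -0.84 (-1.45 to -0.23). At 4 wpt it became one without +PBS-4w replicate 4 (-1.10, adjusted p = 0.00524), and the value was -0.53 (adjusted p = 0.0766) without replicate 1. Set against sub-SCI, the level in +PBS-4w was higher by a log2 fold change of 1.39 ± 0.33 (adjusted p = 0.00417), and this call was lost without sub-SCI replicate 2 or 3 or without +PBS-4w replicate 3 or 4 (1.13 to 1.36, adjusted p of 0.0120 to 0.0347). The libraries of the 2 groups overlapped through +PBS-4w replicate 1.

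In +MSC the level of Gabrb1 was 5.71, 8.49 and 6.66 CPM at 1 wpt, 8.44, 10.7 and 9.35 CPM at 2 wpt, and 8.83, 8.06, 9.12 and 8.43 CPM at 4 wpt. The groups with and without cells overlapped at 1 and 4 wpt and not at 2 wpt, where there were 3 and 2 libraries. The log2 fold changes against +PBS were 0.74 (95% interval 0.04 to 1.45), 0.40 (-0.38 to 1.19) and 0.52 (-0.09 to 1.13), and the mean was 0.56 ± 0.20 (edgeR, adjusted p = 0.0446), short of a DEG. The value at 4 wpt was 0.235 without +PBS-4w replicate 1. In +MSC-4w the gene was higher than in sub-SCI by 1.91 ± 0.34 (edgeR, adjusted p = 0.000141).

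The balance between the 2 beta transcripts thus differed between intact and injured tissue in every library. The log2 ratio of Gabrb2 to Gabrb1 (from CPM with a prior count of 2, no correction for length) was 0.37, 0.12, 0.47 and 0.18 in Intact. In the 22 injured libraries it ran from -4.14 to -0.48. In sub-SCI it was -1.77, -2.49 and -2.36, and in +PBS-4w replicate 1 had -4.14 and replicate 4 had -2.79. With cells it was -0.81 to -0.48 at 1 wpt, -1.01 to -0.69 at 2 wpt and -1.63 to -0.60 at 4 wpt, and without cells -1.50 to -0.71, -1.96 to -1.14 and -4.14 to -1.05. These ranges overlap at 1 and 4 wpt. The ratios are described without a test.

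**Figure D2:**
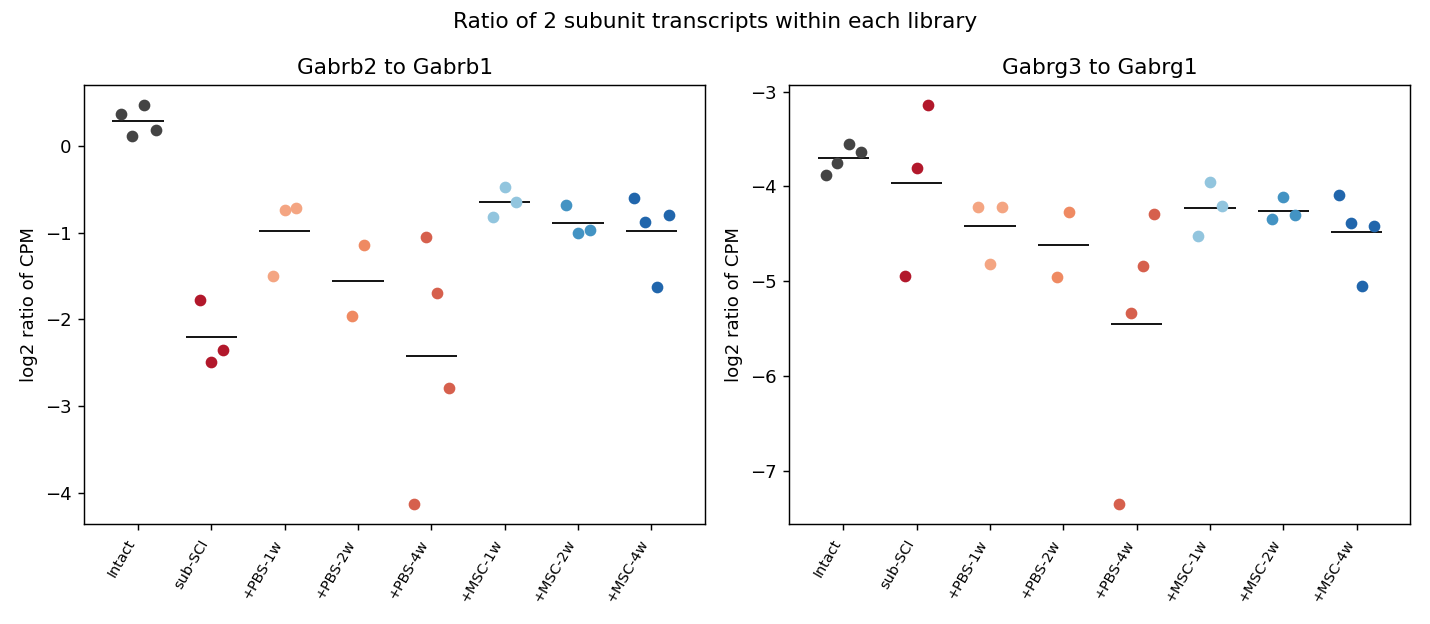
Log2 ratio of CPM (prior count 2) of Gabrb2 to Gabrb1 and of Gabrg3 to Gabrg1 within each of the 26 libraries, by group, with black lines for group means. For Gabrb2 to Gabrb1 the Intact libraries lie at 0.12 to 0.47 and all injured libraries at -0.48 or lower, whereas for Gabrg3 to Gabrg1 the sub-SCI libraries, at -4.94 to -3.14, span the Intact range of -3.88 to -3.55.

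Gabrg1, a gamma gene expressed in neurons and in some glia, was the most abundant member. It had 69.2, 55.2, 61.4 and 56.5 CPM in Intact and 19.2, 18.2 and 10.4 CPM in sub-SCI. The groups did not overlap, and the log2 fold change was -1.93 ± 0.26 (edgeR, adjusted p = 1.58e-06). In +PBS it had 36.8, 49.4 and 16.2 CPM at 1 wpt, 47.0 and 47.1 CPM at 2 wpt, and 30.3, 39.8, 39.2 and 43.5 CPM at 4 wpt.

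These +PBS levels lay below those in Intact without overlap, by less than the fold required of a DEG. The log2 fold changes were -0.83 ± 0.25, -0.37 ± 0.28 and -0.67 ± 0.23 (edgeR, adjusted p = 0.00745, 0.322 and 0.0170). Without +PBS-1w replicate 2 the value at 1 wpt was -1.19 (adjusted p = 0.000649), past both thresholds. Against sub-SCI, Gabrg1 was higher in +PBS-4w by 1.26 ± 0.25 (adjusted p = 0.00104), which became 1.03 (adjusted p = 0.0120) without sub-SCI replicate 3. Gabrb1 and Gabrg1 were the 2 members called higher in that comparison, in which 4.28% of all genes were. The 10 astrocyte markers moved in the same direction there, with 6 of 10 as higher DEGs and a median log2 fold change of 1.13, against 0.059 over all genes. The 15 neuron markers were all higher as well (median 0.92, no DEG), 1 of 7 Schwann cell markers was a higher DEG (median 1.68) and 1 of 10 fibroblast markers a lower DEG (median -1.34). The part of these markers in the result was not tested.

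With cells Gabrg1 had 43.0, 52.8 and 43.3 CPM at 1 wpt, 48.9, 58.8 and 53.1 CPM at 2 wpt, and 51.8, 44.8, 57.1 and 55.6 CPM at 4 wpt. At 2 and 4 wpt every +MSC library lay above every +PBS library, by small amounts. The log2 fold changes were 0.44 (95% interval -0.10 to 0.98), 0.19 (-0.41 to 0.79) and 0.45 (-0.01 to 0.92), and their mean was 0.36 ± 0.15 (edgeR, adjusted p = 0.0859).

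Gabrg3 encodes a rarer gamma subunit and was the gamma gene that stayed further below Intact. It had 4.64, 4.03, 5.18 and 4.48 CPM in Intact and 0.552, 1.23 and 1.12 CPM in sub-SCI, a log2 fold change of -2.25 ± 0.52 (edgeR, adjusted p = 0.000781) without overlap. In +PBS it had 1.902, 1.68 and 0.801 CPM at 1 wpt, 1.44 and 2.38 CPM at 2 wpt, and 0.112, 0.917, 1.30 and 2.16 CPM at 4 wpt. The 0.112 CPM of replicate 1 are 3 reads and the lowest value of the 26 libraries.

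The gene was a lower DEG in +PBS than in Intact at 1 wpt (-1.64 ± 0.50, edgeR adjusted p = 0.00889) and 4 wpt (-2.05 ± 0.47, adjusted p = 0.000967), with -1.26 (95% interval -2.45 to -0.08) at 2 wpt. At 4 wpt the value without replicate 1 was -1.61 (adjusted p = 0.000537). The call at 1 wpt was lost in 21 of 26 fits that left out 1 library, and was kept without sub-SCI replicate 1, +MSC-1w replicate 2, +MSC-4w replicate 1 or +PBS-4w replicate 1 or 4, with values over the 26 fits of -1.88 to -1.35. The ratio of Gabrg3 to Gabrg1 in sub-SCI spanned the Intact range. In the libraries taken after transplantation it was below that range in all 19, at -7.35 to -3.95.

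In +MSC, Gabrg3 had 1.80, 3.35 and 2.28 CPM at 1 wpt, 2.34, 3.32 and 2.62 CPM at 2 wpt, and 2.98, 2.08, 1.65 and 2.54 CPM at 4 wpt. These levels overlapped those in +PBS at each week and lay below the Intact range. The log2 fold changes against +PBS were 0.75 (95% interval -0.33 to 1.84), 0.53 (-0.68 to 1.74) and 1.06 (0.09 to 2.02), and the mean was 0.78 ± 0.30 (edgeR, adjusted p = 0.0671). Without replicate 1 of +PBS-4w the value at 4 wpt was 0.64.

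Gabrd, the delta gene, was near the limit of what these libraries can measure. Intact held 0.437, 1.01, 1.43 and 1.33 CPM, from 8, 22, 31 and 35 reads, and sub-SCI 0.232, 0.471 and 0.271 CPM, from 8, 13 and 8 reads. The groups overlapped, and the log2 fold change of -1.70 (95% interval -3.09 to -0.31) did not make a DEG (edgeR, adjusted p = 0.0325). Without replicate 1 of +PBS-4w, a library in neither group that enters the shared estimate of spread, the value was -1.64 with an adjusted p of 0.00344.

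Without cells Gabrd reads were few at 1 and 2 wpt. +PBS-1w held 0.0892, 0.149 and 0.0801 CPM (3, 4 and 2 reads), and +PBS-2w held 0.0320 and 0.281 CPM (1 and 9 reads). Against Intact the log2 fold changes were -3.27 ± 0.77 at 1 wpt (edgeR, adjusted p = 0.00122) and -2.72 ± 0.85 at 2 wpt (adjusted p = 0.0163, or 0.000938 without +PBS-4w replicate 1). The value at 2 wpt ran from -4.85, without +PBS-2w replicate 2, to -1.87. At 4 wpt the libraries disagreed. Replicate 1 had 40 reads and 1.49 CPM, the highest of the 26 libraries, and the other 3 had 4 reads each and 0.141, 0.179 and 0.184 CPM. The log2 fold change against Intact was -1.06 (95% interval -2.29 to 0.17) with replicate 1 and -2.59 (adjusted p = 0.000199) without it.

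With cells the level of Gabrd was higher in each library than in any +PBS library at 1 and 2 wpt, without passing the test. +MSC-1w held 0.391, 0.510 and 0.354 CPM (13, 14 and 9 reads), +MSC-2w held 1.13, 0.698 and 0.771 CPM (27, 17 and 15 reads), and +MSC-4w held 0.477, 0.568, 0.286 and 0.516 CPM (12, 26, 8 and 12 reads). At 4 wpt every +MSC library exceeded 3 of the 4 +PBS libraries. The log2 fold changes were 1.94 (95% interval 0.24 to 3.64), 2.43 (0.61 to 4.24) and -0.12 (-1.38 to 1.13), with edgeR adjusted p = 0.216, 0.298 and 0.926. The value at 2 wpt was 1.61 without +PBS-2w replicate 1 and 4.57 without replicate 2, so that its size rests on which of 2 libraries is used.

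The value at 4 wpt was 1.43 (edgeR, adjusted p = 0.0600) without replicate 1 of +PBS-4w, and 0.047 without +MSC-4w replicate 3. The mean over the weeks was 1.42 ± 0.45 (adjusted p = 0.0261) with that library and 1.92 (adjusted p = 0.000282) without it, which made Gabrd a DEG. The difference between the effects at 4 and 2 wpt was -2.55 ± 1.06 (edgeR, unadjusted p = 0.0247, adjusted p = 1.00), and between 4 and 1 wpt -2.06 ± 1.02 (unadjusted p = 0.0550, adjusted p = 0.999). Without +PBS-4w replicate 1 these differences were -0.995 and -0.473. In none of the 6 genes did the effect of cells differ between weeks by the adjusted test, and 0% of all genes did in either direction. At an unadjusted p under 0.05, 1 of the 6 differed between weeks, Gabrd between 4 and 2 wpt, where 2.3% of all genes did.

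Gabre, the epsilon gene, was lower after injury and differed little with cells. It had 2.84, 2.02, 2.22 and 2.96 CPM in Intact and 0.814, 0.725 and 0.441 CPM in sub-SCI, a log2 fold change of -1.92 ± 0.40 (edgeR, adjusted p = 0.000300) without overlap. In +PBS it had 0.981, 0.709 and 1.40 CPM at 1 wpt, 0.864 and 1.56 CPM at 2 wpt, and 0.596, 1.41, 0.805 and 1.19 CPM at 4 wpt. It was a lower DEG than in Intact at 1 wpt (-1.28 ± 0.39, adjusted p = 0.00828) and 4 wpt (-1.32 ± 0.36, adjusted p = 0.00377).

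Both calls of Gabre were narrow. The one at 1 wpt was lost in 10 of the 26 fits without 1 library, among them each of those without an Intact library, with adjusted p up to 0.0474. The others were the fits without sub-SCI replicate 2, +MSC-1w replicate 2, +MSC-4w replicate 2, +PBS-1w replicate 1 or 2, or +PBS-2w replicate 1. The one at 4 wpt was lost without Intact replicate 1 or 4 or +PBS-4w replicate 1 or 3, with values of -1.23 to -1.09 and adjusted p up to 0.0155. In +MSC the gene had 1.71, 1.24 and 1.06 CPM at 1 wpt, 2.38, 0.985 and 1.18 CPM at 2 wpt, and 1.99, 1.29, 0.823 and 0.946 CPM at 4 wpt, overlapping +PBS each time. The mean difference over the weeks was 0.35, with a 95% interval of -0.14 to 0.84.

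**Figure D3:**
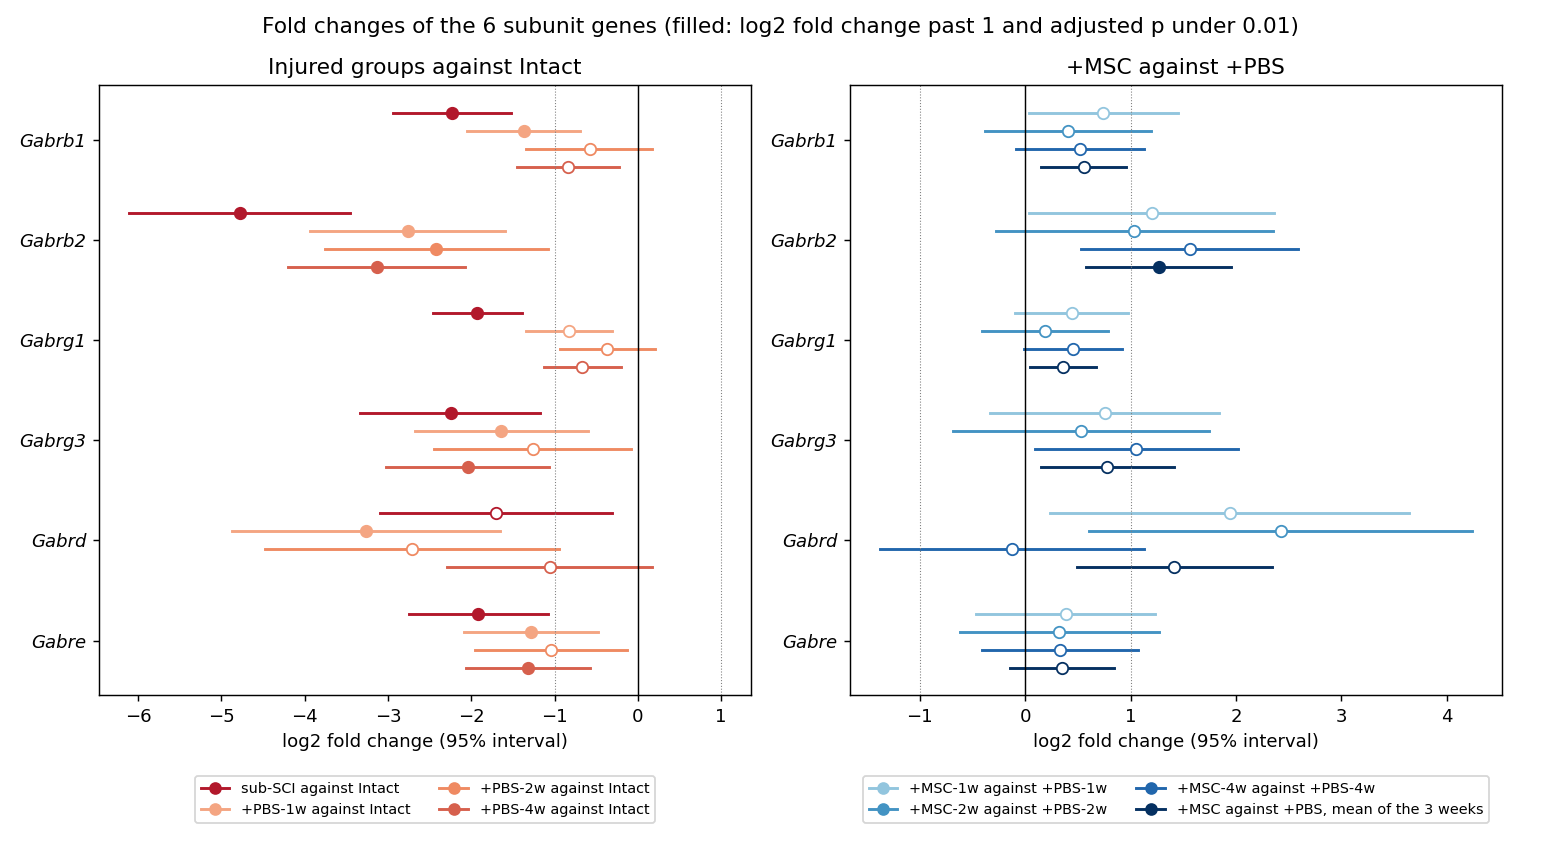
Log2 fold changes with 95% intervals from edgeR for the 6 genes, with injured groups against Intact on the left and +MSC against +PBS on the right, and filled points for DEGs. Gabrb2 lies furthest left in sub-SCI at -4.78, and the only filled point on the right is its mean over the 3 weeks, 1.27.

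The neuron markers moved with these comparisons. In sub-SCI 14 of 15 were lower DEGs, with a median log2 fold change of -2.71 against -0.018 over all genes. In +PBS 13, 4 and 12 of 15 were lower DEGs at 1, 2 and 4 wpt, with medians of -2.22, -1.52 and -1.86. Between +MSC and +PBS the medians were 1.10, 0.85 and 0.96, with all 15 higher and none a DEG at any week, and 4 of 15 were DEGs in the mean of the weeks (median 0.91). The changes of Gabrb1, Gabrg1, Gabrg3 and Gabre in sub-SCI, -2.25 to -1.92, were smaller than the neuron median, and that of Gabrb2 was larger. Markers of other cells moved too. In sub-SCI 10 of 10 fibroblast markers (median 3.67) and 10 of 12 microglia and macrophage markers (median 3.56) were higher DEGs, and 6 of 10 each of the astrocyte (median -1.15) and oligodendrocyte markers (median -1.14) were lower DEGs. Between +MSC and +PBS the fibroblast medians were -1.11, -1.54 and -1.07 at 1, 2 and 4 wpt, with all 10 lower and none a DEG. The part of the neuron and other markers in these results was not tested.

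Set against the mean log2 CPM of the neuron markers in the same library, Gabrb2 was -5.13 ± 0.31 in Intact and -7.02 ± 0.83 in sub-SCI, so that it was low even relative to those markers. Gabrg1 went the other way, from -2.93 ± 0.07 to -2.06 ± 0.47, without overlap, and Gabrb1 from -5.42 ± 0.23 to -4.81 ± 0.69, with overlap. The marker mean itself fell from 8.85 ± 0.15 to 6.01 ± 0.94, so any gene that fell less than the markers rises on this scale. The share of all genes that did so was not counted. In +MSC at 1, 2 and 4 wpt, Gabrb2 relative to the markers was -5.67 ± 0.86, -5.81 ± 0.34 and -5.89 ± 0.29, and in +PBS -5.68 ± 0.31, -6.02 ± 0.05 and -6.77 ± 2.78. On this scale the groups with and without cells overlapped at each week. The mean of +PBS-4w was set by replicate 1, and its other 3 libraries lay at -4.77, -5.25 and -6.21, against -6.32 to -5.70 in +MSC-4w. Gabrg1 and Gabrb1 had lower means with cells than without at each week on this scale, with overlapping ranges. For Gabrg1 they were -2.29, -2.43 and -2.33 against -1.69, -1.76 and -1.58. For Gabrb1 they were -5.02, -4.92 and -4.92 against -4.69, -4.46 and -4.35. At 4 wpt the ranges of both genes overlapped only through +PBS-4w replicate 1, at -3.18 for Gabrg1 and -6.72 for Gabrb1. For Gabrg1 the other +PBS-4w libraries lay at -1.16 to -0.86, above the +MSC-4w range of -2.63 to -2.05. For Gabrb1 they lay at -3.73 to -3.41, above the +MSC-4w range of -5.17 to -4.69. Gabre also had lower means with cells at each week. Gabrg3 had lower means with cells at 1 and 2 wpt (-6.51 and -6.68 against -6.10 and -6.38) and a higher one at 4 wpt (-6.81 against -7.03). That +PBS-4w mean of Gabrg3 includes replicate 1, at -10.53. The other libraries of the group lay at -6.19 to -5.44, above the +MSC-4w range of -7.11 to -6.70. Gabrd had higher means with cells at 1 and 2 wpt and a lower one at 4 wpt.

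Replicate 1 of +PBS-4w broke from the other libraries on this scale too, at -10.85 for Gabrb2 and -10.53 for Gabrg3. It was not poor in all subunits. It held 648 reads of Gabra5, which encodes an alpha subunit (24.1 CPM), whereas the other 3 libraries of the group held 4.02 to 6.42 CPM. Gabra2, an alpha gene of the cluster that holds Gabrb1 and Gabrg1, was at 9.17 CPM there against 28.3 to 40.6 CPM.

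**Figure D4:**
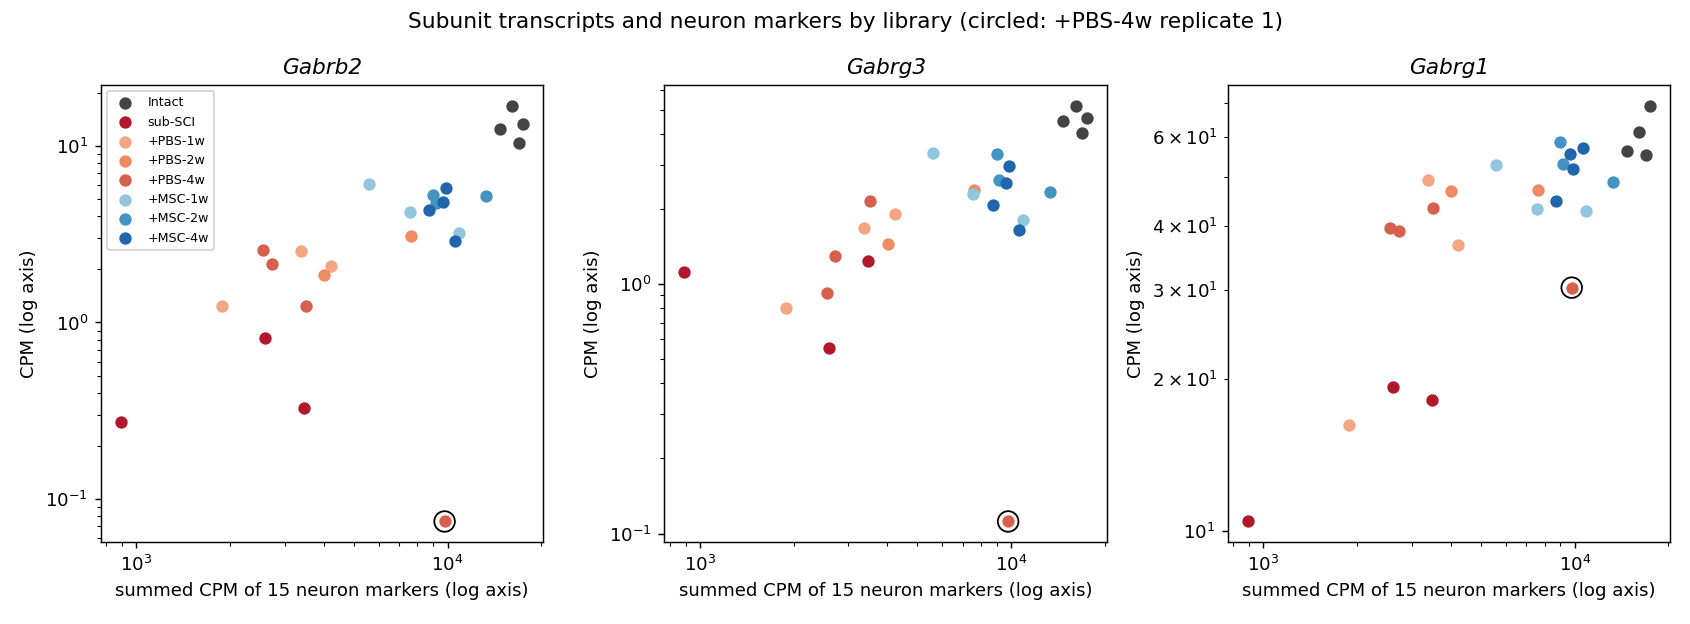
CPM of Gabrb2, Gabrg3 and Gabrg1 against the summed CPM of 15 neuron markers in each of the 26 libraries, on log axes and coloured by group. Intact libraries lie at the upper right, and the circled replicate 1 of +PBS-4w has 9780 CPM of neuron markers but 0.0745 CPM of Gabrb2 and 0.112 CPM of Gabrg3.

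The other genes of the pathway were taken as 3 lists. Of 11 other GABA-A subunit genes, 10 were tested, and in sub-SCI 6 were lower DEGs and 1 was a higher DEG, with a median log2 fold change of -2.07. The higher gene was Gabrr2, which encodes a rho subunit (4.83 ± 0.50, edgeR adjusted p = 4.01e-08), from a mean of 0.122 CPM in Intact. Of 8 genes for GABA synthesis, breakdown and transport, 7 were lower DEGs, with a median of -2.70. Among them were Slc6a11, a GABA transporter, at -3.48 ± 0.33 (edgeR, adjusted p = 1.36e-08), and Abat, the GABA transaminase, at -2.93 ± 0.27 (adjusted p = 7.48e-09). Of 20 genes for anchoring and trafficking of the receptors, 10 were lower DEGs and 1, Gabarap, was higher (1.64 ± 0.14, adjusted p = 3.25e-09), with a median of -1.01. Mdga1, the other gene of these lists named for its higher level, did not pass (0.77 ± 0.52, adjusted p = 0.209).

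Between +MSC and +PBS no gene of the 3 lists was a DEG at a single week. In the mean of the 3 weeks, 2 of the 10 other subunit genes were higher DEGs, Gabra3 (1.03 ± 0.22, edgeR adjusted p = 0.00309) and Gabra5 (1.24 ± 0.31, adjusted p = 0.00828), with a list median of 0.67 against -0.017 over all genes. In the synthesis and transport list Slc6a11 (1.28 ± 0.18, adjusted p = 0.000309) and Gad2, a GABA-synthesizing enzyme (1.03 ± 0.26, adjusted p = 0.00874), were higher and Slc6a13, a GABA transporter of the meninges, was lower (-1.42 ± 0.36, adjusted p = 0.00790). In the anchoring and trafficking list Nsf, an ATPase of membrane fusion, was the 1 higher DEG of 20 (1.03 ± 0.19, adjusted p = 0.00106). The mean change of Gabrb2, 1.27, lay among these values.

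Members also differed in which genes resembled them. Likeness was the root mean square difference in log2 fold change against Intact over the other 7 groups, among about 13863 genes with a mean log2 CPM of at least 1. Nearest to Gabrb1 were Cpne6, Abcc8 and Epha5 (0.085 to 0.127), to Gabrg1 Dnah5, Dtna and Snx22 (0.092 to 0.123), to Gabrg3 Nova1, Eno2 and Elfn2 (0.121 to 0.130) and to Gabre Tenm4, Ralgps1 and Rpp25 (0.101 to 0.120). Gabrb2 had no neighbour closer than Zdhhc22 and Atp8a2 (0.169 and 0.198), followed by AABR07033882.1 (0.267), and Gabrd none closer than AABR07066379.1, Lypd6b and AC139391.1 (0.634 to 0.645). Eno2 is 1 of the 15 neuron markers.

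Among the members themselves the closest pair was Gabrb1 and Gabrg1, at 0.28, and 0.795% of genes lay nearer to Gabrb1 than Gabrg1 did. Both lie in 1 gene cluster, with Gabra4 and Gabra2 between them in GRCr8. The next closest pair, Gabrg3 and Gabre at 0.34, do not lie near each other. A link between location and likeness was not tested. The furthest pair was Gabrb2 and Gabrg1, at 1.96, and Gabrb1 and Gabrb2 were 1.73 apart. Gabrb2 lies near Gabra6, Gabrg3 near Gabra5, and Gabre near Gabra3 and Gabrq, while Gabrd has no gene of these lists near it.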

How the data were processed

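RNA sequencing was compared among 26 libraries in 8 groups, with groups and replicate numbers from the sample labels. The methods give 2 repeats for +MSC-2w where the labels give 3, and the labels were followed. Per the submitters' notes and the methods, reads were trimmed (Trim Galore 0.5.0) and aligned with HISAT2 2.1.0, first to GRCh38 to take out human reads and then to Rnor6. Proper pairs were selected by SAMtools 1.9, and featureCounts 1.6.4 gave counts by gene. The values the authors deposited are these raw counts, without normalization. Rat reads alike enough to map to GRCh38 were lost, by an amount not analysed here. The annotation release and strand setting are not given in the sources used here, so genes that overlap others are uncertain.

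The analysis used edgeR 4.0.16 under R 4.3.3 (filterByExpr by group, TMM, glmQLFit and glmQLFTest, 1 model of the 8 groups, Benjamini-Hochberg adjustment over 17990 genes). CPM used TMM-scaled library sizes, and log2 CPM a prior count of 2. Values under 1 CPM rest on few reads. A chi-square comparison of replicates found no library to be a copy of another.

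The alternatives were DESeq2 1.42.0, fits of the compared groups only, median-of-ratios size factors, no filter, at least 10 counts in every library, a replicate block, a term for replicate 1, all replicate 1 libraries left out, and each library left out. The script was tested on simulated data. The members and lists were chosen with earlier results of these data known. Genes named beside the members were the list genes that were DEGs between +MSC and +PBS, the 3 higher and 3 lower with the smallest adjusted p in sub-SCI, and the 3 nearest in pattern to each member. Some results of these rules are not reported here. Promoter sequences and gene neighbours came from RefSeq tables of GRCr8, matched by symbol for 6 of 6 members. No Rnor6 coordinates were used.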

Additional observations from a re-analysis of the deposited data

Results flagged for a closer look

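In replicate 1 of +PBS-4w Gabrd was at 1.49 CPM, and on the log2 CPM scale the gap to the nearest of the other 3 libraries of the group made up 0.909 of the group's whole range. It was the 1 value so far from its group among the 24 sets of 4 libraries examined, and chance marks about 1 in 20 such sets. The same library held the lowest Gabrb2 and Gabrg3 of all 26. It was also the lowest library for 14.3% of all genes tested and the highest for 11.7%, so extreme values in it were common.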

How the results depend on the processing

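The direction and call of the lower Gabrb2 in sub-SCI, +PBS-1w and +PBS-4w were the same under every alternative in which the gene was tested. The count of DEGs among the 6 genes moved in other places. In sub-SCI it was 3 when at least 10 counts were required in every library, a filter that only 3 members passed. In +PBS-1w it was 3 without a filter, 2 with at least 10 counts in every library and 3 with a replicate block. In +PBS-2w it was 2 with DESeq2 on all libraries or edgeR on the compared groups, 3 with DESeq2 on those groups, and 0 with at least 10 counts or with all replicate 1 libraries left out. In +PBS-4w it was 1 with at least 10 counts. For the mean difference between +MSC and +PBS it was 2 with DESeq2 on all libraries and 0 with edgeR on the compared groups, with median-of-ratios factors, without a filter or with at least 10 counts. Apart from the fits without 1 library, Gabrb2 was 1.04 to 1.31 on the log2 scale in this difference, with adjusted p of 0.000976 to 0.0224. Against Intact, +MSC had 1 DEG at 1 and 4 wpt with DESeq2 on all libraries, 1 at each week with either tool on the compared groups, and 2 at 4 wpt with all replicate 1 libraries left out. Between +PBS-4w and sub-SCI it was 0 with edgeR and 1 with DESeq2 on the compared groups, and 1 with the block.

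With all replicate 1 libraries left out, the log2 fold change between +MSC and +PBS turned to -0.541 and -0.14 for Gabre at 2 and 4 wpt (mean of the weeks -0.183) and to 1.45 for Gabrd at 4 wpt. Gabrd also turned to -1.171 in +PBS-4w against sub-SCI and to 0.093 in the effect at 4 wpt minus that at 2 wpt. Libraries of equal replicate number were not treated as pairs in the main fit. In no comparison did every such pair correlate above 0.1 in its deviations from the group means. Between replicate 1 libraries, however, the correlation was positive in 10 of 12 comparisons, which share libraries. It ran from -0.078 to 0.317. With the block, Gabrg3 turned to -0.023 in +PBS-4w against sub-SCI. A term for replicate 1 moved no count of DEGs.

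With 1 library left out at a time, the number of DEGs among the 6 was 5 to 6 in sub-SCI, 3 to 5 in +PBS-1w, 0 to 2 in +PBS-2w, 2 to 4 in +PBS-4w, 0 between +MSC and +PBS at each week, 0 to 2 for their mean, and 0 to 1 between +MSC and Intact at each week. It was 0 to 3 in +PBS-4w and 3 to 4 in +MSC-4w against sub-SCI. Over these fits Gabre between +MSC and +PBS at 2 wpt ran from -0.166 to 0.809, Gabrd at 4 wpt from -0.44 to 1.428, and Gabrg3 in +PBS-4w against sub-SCI from -0.325 to 0.578. Gabrd in +PBS-4w against sub-SCI ran from -0.944, without +PBS-4w replicate 1, to 0.996. Depth limits Gabrd most, with 1 to 40 reads a library.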
